A study of Homo sapiens with 6 samples.

Results

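Genes of DNA replication and S phase were examined in Jurkat cells, a human T lymphocyte leukemia line with the label WT, after exposure to bisphenol AF (BPAF) or to its solvent. The 44 genes were those named in a list that spans origin licensing, the replicative helicase, polymerases, the sliding clamp, nucleotide supply and the G1/S cyclins, and each matched an Ensembl identifier among the 60856 features of the deposited tables. The 3 BPAF libraries came from cells given 1 μM of this fluorinated bisphenol, and the 3 DMSO libraries from cells given 0.1% dimethyl sulfoxide. The exposure is stated as 12 h in the treatment label and as 24 h in the treatment protocol, and the replicates of each group are described as biological. Poly(A) RNA of these cultures was sequenced as strand-specific paired-end libraries. All 44 genes passed the filter on low counts, as did 15490 features in all.

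Replication begins when the origin recognition complex, CDC6 and CDT1 load a ring of MCM proteins on DNA in G1 phase, and geminin keeps CDT1 from doing so again later in the cycle. CDC45 and the GINS complex turn the loaded ring into an active helicase, and DNA polymerases then extend primers behind it while held by the PCNA clamp. Ribonucleotide reductase and thymidylate synthase supply the nucleotides. Many of these genes are transcribed at the G1/S boundary under E2F factors, and cycling leukemia cells such as Jurkat express them at high levels.

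Library totals ran from 20253656 to 22617613 counts in BPAF and from 20745097 to 22117976 counts in DMSO. The TMM scaling factors, which correct for differences in composition, were 1.01 to 1.02 in BPAF and 0.982 to 0.992 in DMSO, with no overlap between groups. Nor did the groups overlap in features above 0 (23325 to 23711 in BPAF and 22637 to 23047 in DMSO) or in mitochondrial share of counts (2.99% to 3.02% in BPAF and 3.02% to 3.37% in DMSO, narrowly apart), and the part of these in the results was not tested. Summed TPM of 10 T lineage markers was 3208 to 3295 in BPAF and 3077 to 3231 in DMSO. All 5 myeloid markers, 3 of 4 B lineage markers and 6 of 7 epithelial and stromal markers stayed under 2 TPM, the exceptions being CD79A and PECAM1, while the globin genes HBB, HBA1 and HBA2 were detected. EPCAM and CDH1 were at 0 in each library.

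With BPAF, 4 of the 44 genes fell and 0 rose. They were PCNA, the clamp that holds polymerases on DNA, RRM1, the large subunit of ribonucleotide reductase, RPA3, the small subunit of the single-strand binding complex RPA, and MCM7, a subunit of the helicase ring. Each fall was small: mean levels after BPAF were 7.22% to 15.3% below those after DMSO. The test was the edgeR quasi-likelihood test with Benjamini-Hochberg adjustment over all tested genes and a threshold of 0.05. The 4 falls are 9.09% of the list, against a background of 3.4% of all tested genes called lower, 2.65% called higher and 6.06% called in either direction. For the rise count of 0, DESeq2 and limma-voom also gave 0, and they called the same 4 genes lower, while 1 gene had an unadjusted edgeR p under 0.05 in that direction. The count of 4 was 0 with limma on log2 TPM, and was 2, PCNA and RRM1, without BPAF replicate 1, BPAF replicate 3 or DMSO replicate 3. A smaller share of cells in S phase and less RNA per cell cannot be told apart in bulk samples.

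Most of the list lay on the lower side. The counts that follow are over the whole list and include the called genes, which meet each of these criteria for the lower direction. A log2 fold change below 0 was found for 36 of 44 genes (81.8%), against 49.2% of all tested genes, and the median was -0.063 for the list and 0.0019 for all tested genes. Groups did not overlap in TMM-scaled CPM (counts scaled to library size and composition) for 19 genes (43.2%, against 24.8% of all tested genes), 18 of them lower in BPAF and 1 higher. Those 18 are 40.9% of the list, against 12.8% of all tested genes lower and 12% higher without overlap. An unadjusted p under 0.05 was reached by 16 genes in the lower direction, 36.4% against 10.5% of all tested genes, and by 1 in the higher direction, where the background was 9.36%. These results all rest on counts scaled to library size and composition by TMM. The deposited TPM corrects for transcript length, and no TMM factors were applied to it here. On that scale the direction of most members turned, as described further below. The part of TMM or of length in this turn was not tested.

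Promoters of 3 of the 4 genes with a call (PCNA, RRM1 and MCM7), and that of MCM6, are printed because E2F sites in such promoters are the textbook route to shared G1/S transcription. RefSeq (GRCh38.p14) promoter sequences, from 250 bases before to 50 after each start, matched 37 of the 44 genes, and the 7 without an entry were RPA3, RPA2, MCM4, MCM5, POLD3, GINS4 and CCNE2. The letters searched for E2F were TTTCCCGC, TTTCGCGC, TTTGGCGC and TTTGCCGC on both strands, and any start of a gene was accepted. They were found for 20 of these 37 genes (54.1%), against 3.99% of 27305 genes with a promoter in the same source. The runs below give the 250 bases before the most upstream RefSeq start, 5′ to 3′ on the gene's strand, with E2F letters in capitals. They are PCNA at chr20:5126623-5126872 (minus strand), RRM1 at chr11:4094435-4094684 (plus strand), MCM7 at chr7:100101398-100101647 (minus strand) and MCM6 at chr2:135876444-135876693 (minus strand).
PCNA: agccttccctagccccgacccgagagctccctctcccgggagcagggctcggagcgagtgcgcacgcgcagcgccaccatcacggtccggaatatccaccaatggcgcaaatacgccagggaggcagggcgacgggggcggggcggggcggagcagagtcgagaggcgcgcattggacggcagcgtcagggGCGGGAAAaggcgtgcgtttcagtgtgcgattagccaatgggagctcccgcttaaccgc
RRM1: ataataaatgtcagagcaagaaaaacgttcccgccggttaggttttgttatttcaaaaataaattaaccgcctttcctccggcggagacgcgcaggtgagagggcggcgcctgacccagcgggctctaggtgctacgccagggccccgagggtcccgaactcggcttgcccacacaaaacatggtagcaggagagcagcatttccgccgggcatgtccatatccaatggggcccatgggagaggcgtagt
MCM7: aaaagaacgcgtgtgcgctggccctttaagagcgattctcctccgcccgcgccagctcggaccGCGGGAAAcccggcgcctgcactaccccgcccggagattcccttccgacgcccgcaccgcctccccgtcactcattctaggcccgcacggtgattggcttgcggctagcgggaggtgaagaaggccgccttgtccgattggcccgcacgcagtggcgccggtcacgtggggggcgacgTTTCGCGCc
MCM6: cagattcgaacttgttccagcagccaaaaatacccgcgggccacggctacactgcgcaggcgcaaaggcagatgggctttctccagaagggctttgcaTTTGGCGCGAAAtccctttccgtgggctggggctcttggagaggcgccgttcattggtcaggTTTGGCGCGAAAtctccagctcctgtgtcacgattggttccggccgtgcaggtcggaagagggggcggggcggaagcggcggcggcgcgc

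PCNA carried 1 match, which began 59 bases before the start, and MCM7 carried 2, at 187 and 9 bases before the start. MCM6 carried 4, as 2 overlapping pairs on opposite strands that began 152, 148, 90 and 86 bases before the start, the most of any member. RRM1 had none of these letters in the window. Members with E2F letters had a median log2 fold change of -0.053 (15 of 20 below 0), and the other 17 matched members had a median of -0.059. CCAAT letters were found for 23 of 37 members (62.2%) against 39.7% of genes, and an E2F match shared a base with a CCAAT match in 1 member, MCM7. The E-box CACGTG was found for 6 (16.2% against 8.77%) and the CHR letters TTTGAA or TTCGAA for 2 (5.41% against 19.5%), on both strands, and none of these shared a base with an E2F match. These are matches of letters, counted without any test.

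**Figure D1:**
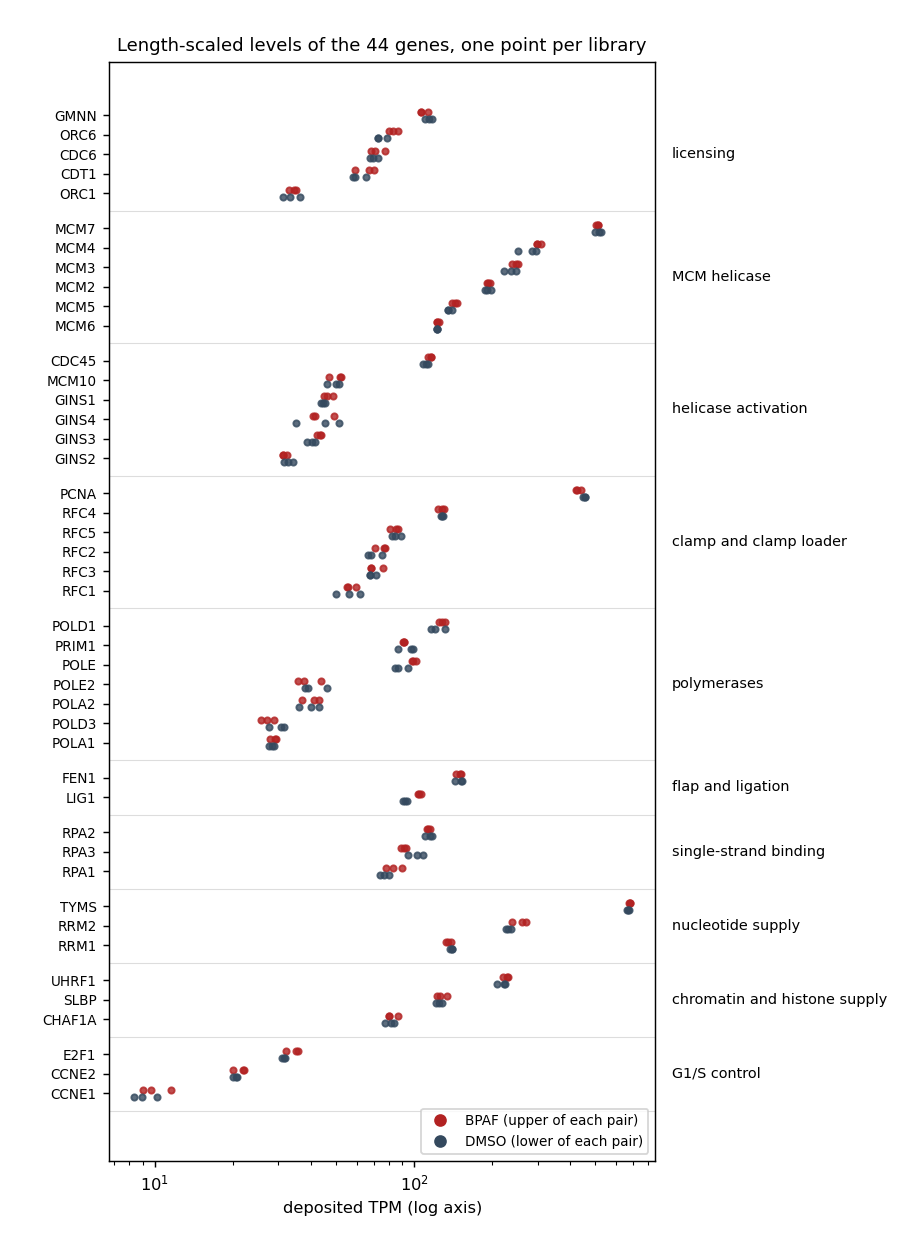
Deposited TPM of each gene on a log axis, grouped by role, with a point for each library (BPAF in the upper row of each gene, DMSO in the lower). Mean levels run from 9.17 TPM for CCNE1 in DMSO to 679.7 TPM for TYMS in BPAF, and differences between genes are far larger than those between groups.

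Levels differed far more between genes than between treatments. On the TPM scale TYMS, thymidylate synthase, was highest at 679.7 ± 3.12 TPM in BPAF and 667 ± 7.53 TPM in DMSO (SD, n = 3 each). CCNE1, cyclin E1, was lowest at 10.1 ± 1.28 TPM in BPAF and 9.17 ± 0.969 TPM in DMSO, so that the span in DMSO was 72.8-fold. The order of the 4 highest genes, TYMS, MCM7, PCNA and MCM4, was the same in both groups, and no gene moved by more than 2 ranks. Of 43 neighbouring pairs in the DMSO order, 12 had ranges over the 6 pooled libraries that did not overlap. In the other 31 these ranges overlapped, and order within each library was not counted. Together the list took 0.562% of TPM in BPAF and 0.551% in DMSO. The spread between libraries of a group was small, with a median coefficient of variation of 2.49% in BPAF and 2.81% in DMSO on the CPM scale.

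**Figure D2:**
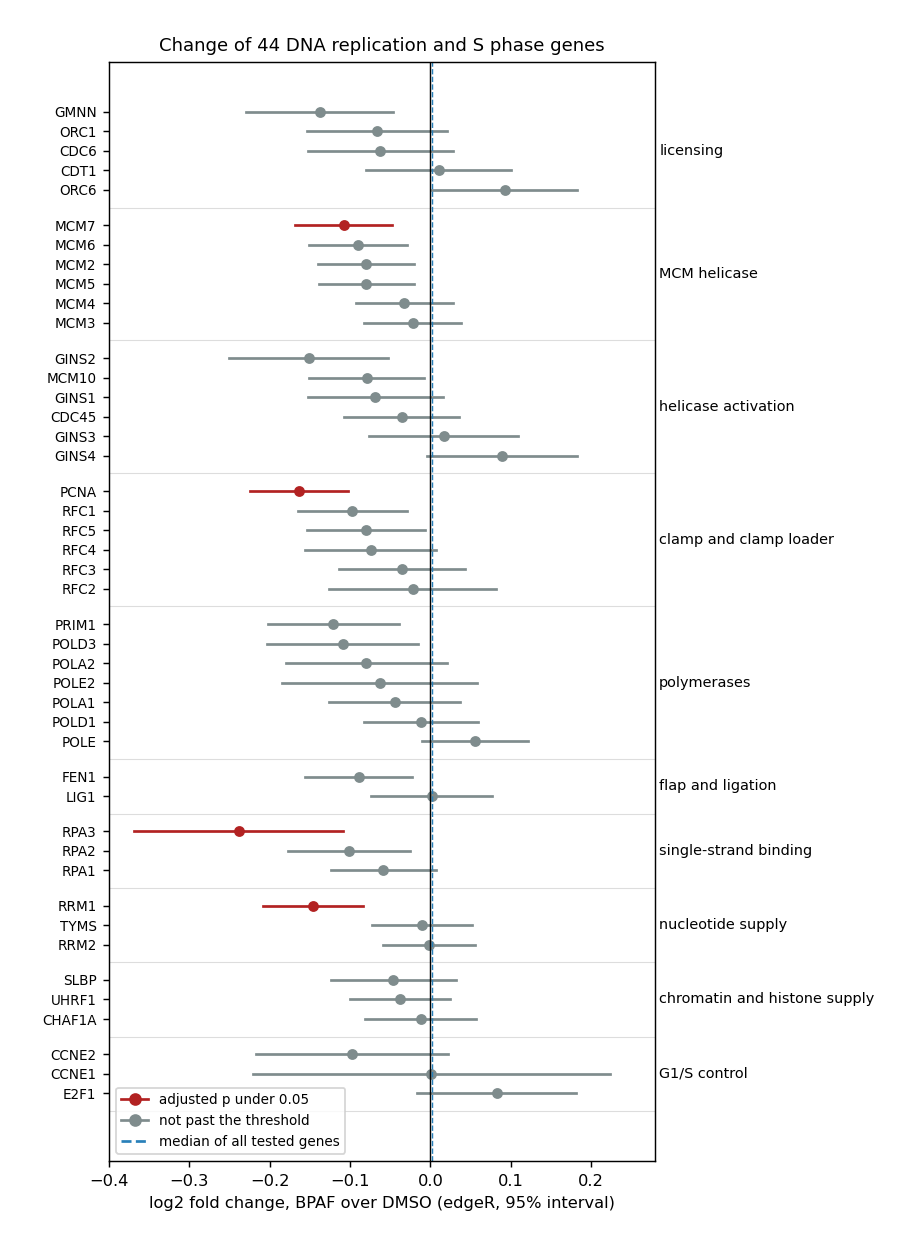
Log2 fold change of BPAF over DMSO for each gene, grouped by role, with 95% intervals from the edgeR fit. PCNA, RRM1, RPA3 and MCM7, drawn in red, passed the threshold, and 36 of 44 points lie below 0.

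None of the 5 licensing factors passed the test, with unadjusted edgeR p under 0.05 for 1 lower (GMNN) and 1 higher (ORC6). GMNN encodes geminin, the inhibitor of CDT1, and had 70.0, 76.4 and 69.9 CPM in BPAF, against 79.8, 79.7 and 78.3 CPM in DMSO. All 3 BPAF libraries were below all 3 DMSO libraries, and the log2 fold change came to -0.14 ± 0.04 (SE) at an edgeR adjusted p of 0.0678. CDT1, the loader that geminin binds, averaged 98.0 ± 5.93 CPM in BPAF and 97.2 ± 2.75 CPM in DMSO (SD, n = 3), and its groups overlapped. The ratio of CDT1 to GMNN in TPM was 0.557, 0.617 and 0.628 in BPAF, against 0.517, 0.556 and 0.525 in DMSO. The lowest BPAF ratio lay just above the highest DMSO ratio; this ratio was chosen after the values were seen and was not tested. CDC6, the ATPase that helps load the ring, had a log2 fold change of -0.062 (adjusted p = 0.471), and ORC1, the largest origin recognition subunit, one of -0.067 (0.407). ORC6, the smallest, had the highest log2 fold change of the list, 0.092 ± 0.043, with 83.5 ± 1.91 CPM in BPAF and 78.3 ± 3.95 CPM in DMSO (edgeR adjusted p = 0.239).

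All 6 subunits of the MCM ring, the motor of the replicative helicase, had a log2 fold change below 0, and MCM7 was the only one called among them. MCM7 (ENSG00000166508, GRCh38 chromosome 7, 100092728 to 100101940, minus strand) had 779, 781 and 769 CPM in BPAF, against 809, 836 and 865 CPM in DMSO. The BPAF libraries lay within a narrow band under the lowest DMSO library. This gave a log2 fold change of -0.11 ± 0.03 (SE) at an edgeR adjusted p of 0.0309. This call was kept without DMSO replicate 1 and lost without each of the other 5 libraries, with adjusted p up to 0.131, and it was lost with the replicate number as a block (log2 fold change -0.11, adjusted p = 0.0568) and with upper quartile scaling (-0.097, 0.0536). With limma on log2 TPM plus 1 the log2 fold change was -0.013 (adjusted p = 0.856). MCM7 shares 392 exonic bases with AP4M1 on the opposite strand, which had a log2 fold change of -0.028 (adjusted p = 0.870), and some of its deposited counts were not whole.

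MCM6 had 306, 305 and 298 CPM in BPAF, against 321, 314 and 332 CPM in DMSO, without overlap (log2 fold change -0.090 ± 0.029, adjusted p = 0.0762). MCM5 had 304, 312 and 302 CPM in BPAF, against 319, 322 and 328 CPM in DMSO, also without overlap (-0.080 ± 0.028, adjusted p = 0.104). MCM2 was likewise lower in every BPAF library (-0.080, adjusted p = 0.105). MCM3 and MCM4 overlapped between groups, with log2 fold changes of -0.022 and -0.032. The ring contains 1 copy of each subunit, yet transcript levels were uneven: in TPM, MCM7 stood at 509 ± 3.98 in BPAF and 513 ± 15.7 in DMSO, and MCM6 at 123 ± 1.59 in BPAF and 123 ± 0.311 in DMSO. The ratio of MCM7 to MCM6 was 4.13 ± 0.045 in BPAF and 4.18 ± 0.13 in DMSO, with overlap.

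Factors that activate the loaded helicase gave 0 calls in 6 genes with edgeR, DESeq2 or limma-voom, and 2 had an unadjusted edgeR p under 0.05, both lower. GINS2, a subunit of the GINS complex, had 52.2, 54.5 and 51.9 CPM in BPAF, against 61.2, 57.3 and 57.5 CPM in DMSO. Every BPAF library was below every DMSO library, and the log2 fold change was -0.15 ± 0.05 (edgeR adjusted p = 0.0637). GINS2 did pass with the length and GC offset (adjusted p = 0.0349) and without the low count filter (0.0464). Its partners differed in direction: GINS1 had a log2 fold change of -0.069, GINS3 of 0.016 and GINS4 of 0.090. In the edgeR fit with TMM and the low count filter over all 6 libraries, their adjusted p was 0.274 or more. GINS4 was higher in all 3 BPAF libraries, at 57.4, 58.7 and 59.9 CPM against 55.9, 54.4 and 55.2 CPM in DMSO, which made it the only one of the 44 genes that was higher without overlap on this scale. GINS4 shares 1159 exonic bases with an antisense RNA, and its TPM overlapped between groups. MCM10, which helps the helicase start, had -0.080 (adjusted p = 0.194), and CDC45, the helicase cofactor, -0.036 (adjusted p = 0.625).

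**Figure D3:**
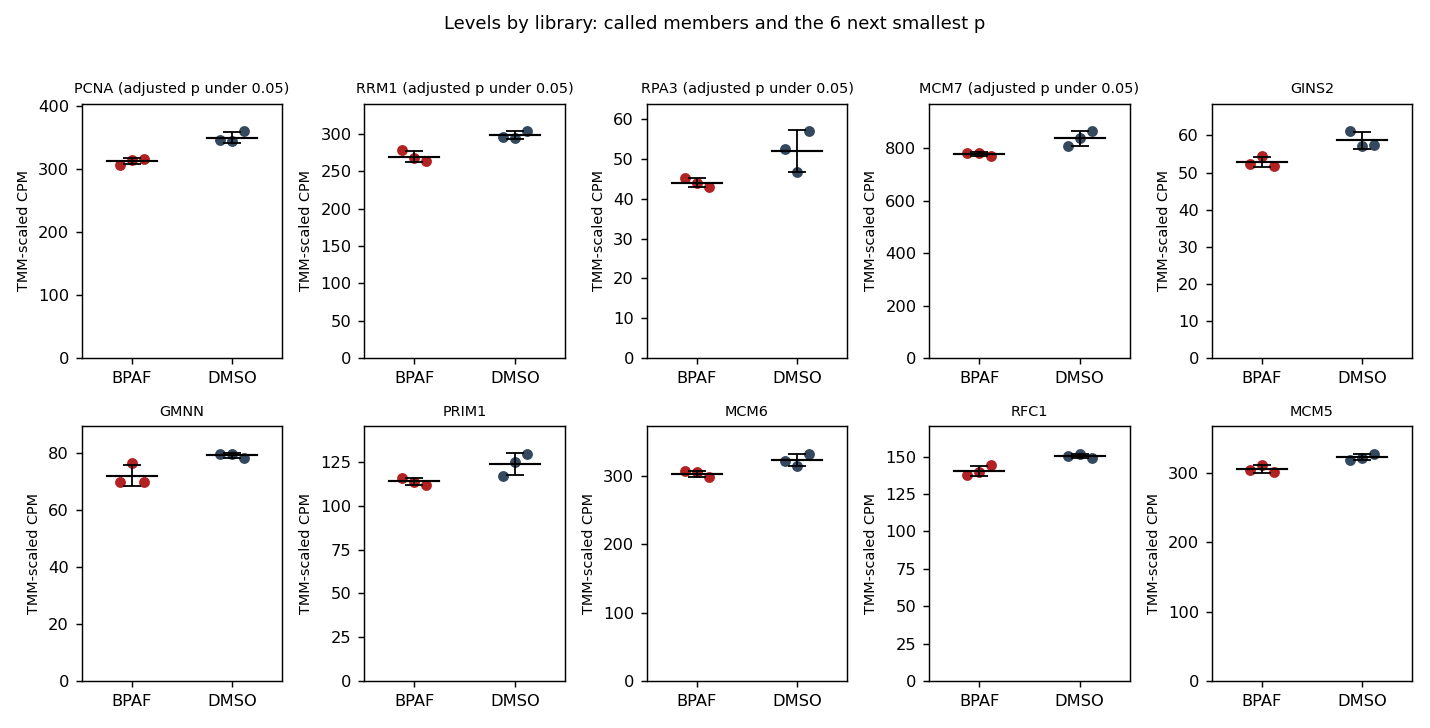
TMM-scaled CPM in each library, from 0, for the 4 genes past the threshold and the 6 with the next smallest p. Points are libraries (BPAF left, DMSO right), horizontal bars are means and error bars are SD (n = 3); in all 10 panels the BPAF points lie below the DMSO points.

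The clamp passed the test and its loader did not, and the difference between them was not tested. PCNA (ENSG00000132646, chromosome 20, 5114953 to 5126626, minus strand) had 306, 315 and 315 CPM in BPAF, against 345, 344 and 360.0 CPM in DMSO. The highest BPAF library stayed well under the lowest DMSO library. Its log2 fold change was -0.16 ± 0.03 (SE; 95% interval -0.22 to -0.10; edgeR adjusted p = 0.0027), the smallest p of the list. PCNA stayed under the threshold whichever library was removed, with adjusted p at most 0.0364. PCNA was also lower without overlap in TPM, at 428 ± 9.56 in BPAF and 453 ± 4.11 in DMSO (SD, n = 3), although limma on log2 of TPM plus 1 gave an adjusted p of 0.233. Counts of PCNA were whole in every library, and its 3 annotated processed pseudogenes held at most 1 count.

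Replication factor C opens the clamp and loads it. All 5 of its subunits had a log2 fold change below 0. RFC1, the large subunit, had 138, 139.9 and 144 CPM in BPAF, against 150.3, 152 and 149 CPM in DMSO, without overlap (-0.097 ± 0.033, adjusted p = 0.0840). RFC5 was lower without overlap too (-0.080, adjusted p = 0.201). RFC2, RFC3 and RFC4 overlapped between groups, with log2 fold changes of -0.022, -0.035 and -0.074. RFC4 shares 21 exonic bases with EIF4A2 on the opposite strand, which fell in the same fit (-0.25, adjusted p = 0.0140), and its part in the RFC4 value was not tested.

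Polymerase genes gave 0 calls in 7 with each of these tools, and 2 had an unadjusted edgeR p under 0.05, again lower. PRIM1, the catalytic primase that makes the RNA primer, had 116, 114 and 112 CPM in BPAF, against 117, 125 and 129.9 CPM in DMSO. Groups were separate only narrowly, between 116 and 117 CPM (log2 fold change -0.12 ± 0.04, edgeR adjusted p = 0.0744). PRIM1 shares 33 exonic bases with NACA on the same strand, which fell slightly (-0.11, adjusted p = 0.0362), and their part in the PRIM1 value was not tested. It also shares 132 exonic bases with HSD17B6 on the opposite strand (-0.35, adjusted p = 0.262) and 362 with AC117378.1, which had 0 counts in each library. POLA1 and POLA2, the catalytic and second subunits of polymerase alpha, had -0.045 and -0.080 with overlap. POLA2 shares 2012 exonic bases with AP000944.2 on the same strand (0.30, edgeR adjusted p = 0.318), and the part of AP000944.2 in the POLA2 value was not tested. POLD3, an accessory subunit of polymerase delta, was lower without overlap at 61.8 ± 1.54 CPM in BPAF and 66.7 ± 2.40 CPM in DMSO (adjusted p = 0.169), and the catalytic POLD1 had -0.012. In polymerase epsilon the catalytic POLE had 0.056 (adjusted p = 0.347) and its partner POLE2 -0.063 (adjusted p = 0.610). Neither these 2 nor the polymerase delta pair were tested against each other.

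FEN1 and LIG1 finish the lagging strand by removing flaps and sealing nicks. FEN1 had 185 ± 6.49 CPM in BPAF and 197 ± 2.34 CPM in DMSO, lower without overlap (-0.089, adjusted p = 0.108). LIG1 had 174, 163 and 169 CPM in BPAF, against 163, 166 and 177 CPM in DMSO, with full overlap (0.0015, adjusted p = 0.991).

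RPA coats single-stranded DNA as a trimer, and all 3 subunits were lower without overlap in BPAF. RPA3 (ENSG00000106399, chromosome 7, 7636518 to 7718607, minus strand) had the largest fall of the list, with 45.3, 43.9 and 43.0 CPM in BPAF, against 52.3, 46.6 and 57.0 CPM in DMSO. DMSO libraries spread over a wider range than BPAF libraries. The log2 fold change was -0.24 ± 0.06 (SE; 95% interval -0.37 to -0.11; edgeR adjusted p = 0.0287). The call was kept without DMSO replicate 2 (adjusted p = 0.00275) and lost without each of the other 5 libraries, with adjusted p up to 0.129. RPA3 shares 118 exonic bases with UMAD1 on the opposite strand (-0.13, adjusted p = 0.380), and some of its counts were not whole. With limma on log2 TPM plus 1 its log2 fold change was -0.16 (adjusted p = 0.219). RPA2, the middle subunit, had 104 ± 2.12 CPM in BPAF and 112 ± 2.55 CPM in DMSO (-0.10, adjusted p = 0.107), and RPA1, the large subunit, -0.059 (adjusted p = 0.310). In TPM the ratio of RPA3 to RPA1 was 1.1 ± 0.07 in BPAF and 1.33 ± 0.12 in DMSO, without overlap, a comparison chosen after the values were seen and not tested.

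The subunits of ribonucleotide reductase, which makes deoxynucleotides, gave different values. RRM1 (ENSG00000167325, chromosome 11, 4094707 to 4138876, plus strand) had 278, 267 and 263 CPM in BPAF, against 296, 295 and 304 CPM in DMSO. All BPAF libraries lay below all DMSO libraries. The log2 fold change was -0.15 ± 0.03 (SE; 95% interval -0.21 to -0.083; edgeR adjusted p = 0.00674), and it stayed under the threshold whichever library was removed, with adjusted p at most 0.0434. In TPM its groups overlapped, and limma on log2 TPM plus 1 gave a log2 fold change of -0.036 (adjusted p = 0.629). RRM2, the subunit that carries the radical and is synthesised in S phase, had 352, 347 and 359 CPM in BPAF, against 352, 352 and 357 CPM in DMSO. Its groups overlapped and its log2 fold change was -0.0019 with a 95% interval of -0.060 to 0.056. RRM2 shares 1077 exonic bases with AC007240.1 on the same strand, which is absent from the deposited features. The part of AC007240.1 in the RRM2 value was not tested. The intervals of RRM1 and RRM2 did not overlap, and the difference between them was not tested. The ratio of RRM1 to RRM2 in TPM was 0.532 ± 0.024 in BPAF and 0.604 ± 0.020 in DMSO, without overlap. It was likewise chosen after the values were seen. Such TPM ratios were also taken for other pairs. Those of PCNA to RFC1, POLE to POLE2, POLA1 to POLA2 and POLD1 to POLD3 overlapped between groups, and that of ORC1 to ORC6 did not. How often such ratios separate among all tested genes was not counted.

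TYMS had 535, 551 and 543 CPM in BPAF, against 551, 525 and 564 CPM in DMSO, with a log2 fold change of -0.011 (95% interval -0.073 to 0.052). Its antisense neighbour ENOSF1, which shares 967 exonic bases with it, rose in the same fit (0.21, adjusted p = 0.0118). The libraries are described as strand-specific, and the sources used here do not state whether counting used the strand, so reads in the shared bases may belong to either gene.

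Chromatin and histone factors overlapped between groups. UHRF1, which carries DNA methylation through replication, had -0.038, CHAF1A, the large subunit of the histone chaperone CAF-1, -0.012, and SLBP, which binds the stem-loop of histone mRNAs, -0.046. Among the G1/S regulators, CCNE2 was lower without overlap at 32.0 ± 1.23 CPM in BPAF and 34.3 ± 1.00 CPM in DMSO (-0.098, adjusted p = 0.365), though it shares 1629 exonic bases with INTS8 on the opposite strand. CCNE1, its paralogue, had 9.40 ± 0.63 CPM in BPAF and 9.38 ± 0.426 CPM in DMSO, and the interval of its log2 fold change, -0.22 to 0.22, was the widest among genes without a call. E2F1, the activating transcription factor of this programme, had 74.6 ± 3.77 CPM in BPAF and 70.5 ± 3.23 CPM in DMSO (0.083, adjusted p = 0.353).

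On the count scale, the spread between libraries limits how far a gene without a call differed. The median SE of the log2 fold changes was 0.037. For all 40 genes without a call the 95% interval stayed within 1.2-fold in either direction, and for 17 of them within 1.1-fold. These intervals hold for TMM-scaled counts and for the spread between these 6 libraries, not for TPM. The TPM log2 ratios of many members lie outside their count intervals. Among genes without a call, these include LIG1 (0.19), POLE (0.17), RRM2 (0.15), MCM4 (0.12), RPA1 (0.12) and MCM5 (0.068). Of the called genes, PCNA (-0.083), RRM1 (-0.036) and MCM7 (-0.014) lie outside theirs, and RPA3 (-0.16) lies inside.

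**Figure D4:**
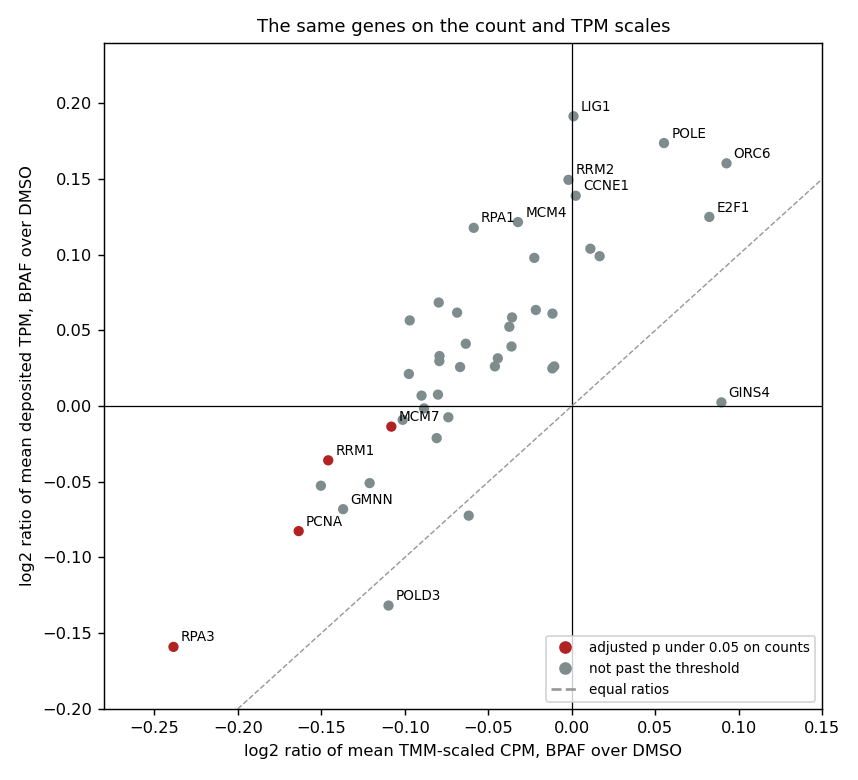
Log2 ratio of group means, BPAF over DMSO, in TMM-scaled CPM (x axis) and in deposited TPM (y axis) for the 44 genes, with the 4 called genes in red and a dashed line where both ratios are equal. All points but GINS4, POLD3 and POLE2 lie above the line, and 31 genes are above 0 in TPM while 8 are above 0 in CPM.

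Direction depended on the scale for most of the list. The mean TPM was higher in BPAF for 31 of the 44 genes, whereas the mean CPM was higher for 8. The log2 ratio in TPM exceeded that in CPM for 41 genes, by a median of 0.091 over the list. Without overlap in TPM, 2 genes were lower in BPAF (PCNA and RPA3) and 8 were higher, namely LIG1, RRM2, TYMS, MCM4, ORC6, POLE, GINS3 and E2F1. The share of all tested genes was 3.5% lower and 21% higher on that scale, so both list counts, 2 and 8 of 44, lie near the background. Only PCNA and RPA3 were separate in the same direction on both scales.

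LIG1 showed the largest gap between scales. Its TPM was 105 ± 1.61 in BPAF and 92.0 ± 1.49 in DMSO, without overlap, while its log2 fold change from counts was 0.0015. RRM2 had 256 ± 16.1 TPM in BPAF and 230.5 ± 5.12 TPM in DMSO, also without overlap. RPA1 had 83.4 ± 5.97 TPM in BPAF and 76.8 ± 3.03 TPM in DMSO, with overlap, although its CPM was lower in every BPAF library. The sources used here do not state how the authors computed TPM, nor whether a gene had the same length in every library. The ratio of TPM to CPM was itself separate between groups for 26 of the 44 genes. This ratio was not taken for genes outside the list, so the count cannot be read as particular to replication genes.

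Against the other genes on the same scale the list kept its side. With limma on log2 of TPM plus 1, the median log2 fold change was 0.030 for the list and 0.078 for all tested genes, and 33 of 44 members lay below the median of all genes. On the count scale 38 of 44 lay below it. The list median minus that of all genes was -0.065 on counts and -0.047 in TPM. That fit gave 0 member calls and 1 call among all genes, while 2 members were lower (4.55%) and 4 higher (9.09%) at an unadjusted p under 0.05, against 2.43% and 15% of all tested genes. Members took 0.838%, 0.840% and 0.832% of raw counts in BPAF, against 0.846%, 0.850% and 0.852% in DMSO, without scaling by TMM.

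Summed levels by role followed the same split and were not tested. The summed TPM of the MCM ring was 1516 ± 1.72 in BPAF and 1477 ± 40.5 in DMSO, and its summed CPM in BPAF was 0.951 of that in DMSO. The clamp and its loader summed to 842 ± 15.4 TPM in BPAF and 861 ± 12.1 TPM in DMSO, and to 0.931 in CPM, the lowest ratio of the 10 roles on either scale. Single-strand binding was the other role with a lower sum in TPM, at 288 ± 8.44 in BPAF and 293 ± 6.95 in DMSO. Sums of the G1/S group were 65.7 ± 1.75 TPM in BPAF and 61.1 ± 1.04 TPM in DMSO, without overlap, and 1.02 in CPM.

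Other genes of the pathway were read from lists written with earlier results of these data known. Of 12 further subunits of the replication machinery, ORC3 and ORC5, which belong to the origin recognition complex, fell and 0 rose (16.7% lower, against 3.4% of all tested genes). ORC3 had 47.2 ± 2.62 CPM in BPAF and 55.4 ± 3.69 CPM in DMSO (log2 fold change -0.23, edgeR adjusted p = 0.0175), and ORC5 28.8 ± 0.582 CPM in BPAF and 33.6 ± 0.927 CPM in DMSO (-0.22, adjusted p = 0.0237). Of the rest of that list, POLE3, a histone-fold subunit of polymerase epsilon, had the smallest p (-0.086, adjusted p = 0.152). The list median was -0.078. ORC3 kept its call without BPAF replicate 3, DMSO replicate 1 or DMSO replicate 2 and lost it without each of the other 3 libraries (adjusted p up to 0.101). ORC5 kept its call without BPAF replicate 2 or DMSO replicate 3 and lost it without each of the other 4 (up to 0.108), and DESeq2 called ORC3 but not ORC5.

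Among 27 firing, fork and checkpoint factors, CDC7, the kinase that fires licensed origins by phosphorylating MCM proteins, fell and 0 rose. That is 3.7% of the list, near the background of 3.4%. At an unadjusted edgeR p under 0.05, 7 of the 27 were lower and 3 higher, against 10.5% and 9.36% of all tested genes. CDC7 had 76.8 ± 3.91 CPM in BPAF and 85.8 ± 1.60 CPM in DMSO (-0.16, edgeR adjusted p = 0.0339). The call was kept without BPAF replicate 3 or DMSO replicate 2, lost without each of the other 4 libraries (adjusted p up to 0.211), and not made by DESeq2. CDK2, the S phase cyclin-dependent kinase, did not pass (-0.098, adjusted p = 0.0926). Among 16 tested genes of nucleotide synthesis and salvage, where 1 call is 6.25%, PAICS, an enzyme of purine synthesis, fell to 565 ± 3.82 CPM in BPAF, against 605 ± 6.81 CPM in DMSO (-0.10, adjusted p = 0.0295), and UMPS of pyrimidine synthesis had -0.10 (adjusted p = 0.181). The PAICS call was kept without DMSO replicate 3 and lost without each of the other 5 libraries (adjusted p up to 0.131), and also lost with the replicate block (0.0545). Its mean TPM was 308 ± 3.89 in BPAF and 303 ± 17.0 in DMSO, the opposite direction, with overlap. All 4 of these calls were lost with the length and GC offset, with adjusted p of 0.051 for ORC3, 0.0744 for ORC5, 0.15 for CDC7 and 0.12 for PAICS. In limma on log2 TPM plus 1 the adjusted p was 0.459 or more for each, with log2 fold changes of -0.029 for ORC3, -0.10 for ORC5, -0.078 for CDC7 and 0.022 for PAICS. The 10 replication-coupled chromatin genes and the 23 tested G1/S regulators gave 0 calls each. DESeq2 and limma-voom also gave 0 calls for both lists. Their smallest p belonged to USP1, a deubiquitinase that acts on PCNA (-0.096, adjusted p = 0.0863), and CDK4, the partner of D cyclins (-0.077, adjusted p = 0.118). An unadjusted edgeR p under 0.05 was reached by 2 chromatin genes and 3 regulators. The median of the G1/S regulators was 0.0015, close to that of all tested genes.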

How the data were processed

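Libraries were described as poly(A)-selected, strand-specific and paired-end, sequenced on a NovaSeq instrument, with 3 BPAF and 3 DMSO samples grouped by their labels. The authors deposited estimated counts per gene, many of them not whole, and TPM values. Per the submitters' processing notes, FastQC, cutadapt, HISAT2 and featureCounts were used with GRCh38 (hg38). The sources used here do not state the tools' versions, their order or the annotation. The 192 features without an Ensembl identifier held 0.243% to 0.271% of counts. They were not removed beforehand, and met the same low count filter as the other features.

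Counts were rounded and tested with edgeR 4.0.16 in R 4.3.3 (filterByExpr, TMM, robust quasi-likelihood, all 6 libraries, no covariate, Benjamini-Hochberg, threshold 0.05). The procedure was tested on simulated data. Alternatives were RLE and upper quartile scaling, no filter, DESeq2 1.42.0, limma 3.58.1 (voom, and log2 of TPM plus 1 or 0.1), a length and GC offset, a replicate block and leaving out each library. Gene symbols came from a reference list of gene names, and positions, exon overlaps and pseudogenes from GENCODE 29. Library totals were 20253656 to 22617613 counts. The biological coefficient of variation, from the common dispersion of the edgeR fit over genes, was 3.77%. Intervals and p-values cover the spread between these libraries. No libraries were identical. The library totals did not differ between groups beyond their spread (exact permutation p = 0.9, two-sided; the smallest this design allows is 0.1).

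All 44 genes are named; library values are given for those past the threshold and the 6 with the next smallest p. Values by library for GINS4, LIG1, RRM2 and TYMS were added after they were seen. From other lists, genes past the threshold and the 1 with the next smallest p are named. The members and lists were chosen with earlier results of these data known.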

Additional observations from a re-analysis of the deposited data

How the results depend on the processing

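Among all tested genes, 527 were called lower and 411 higher. RLE gave 514 and 406, limma-voom 503 and 385, DESeq2 421 and 269, and DESeq2 without independent filtering 374 and 257. Upper quartile scaling gave 400 and 461, which puts 46.5% of calls on the lower side against 56.2%. Limma on log2 TPM gave 0 lower with either pseudocount, with 1 higher at a pseudocount of 1 and 2 higher at 0.1, while 2705 and 2675 genes had an unadjusted p under 0.05. With 1 library left out, lower calls ranged from 175 to 541 and higher calls from 147 to 368. Of the 44 replication genes, 4 were called lower. The count was 7 without the low count filter (GINS2, GMNN and PRIM1 added) and 5 with the length and GC offset (GINS2 added). It was 0 in TPM with either pseudocount, and 2 to 4 with 1 library left out. PCNA and RRM1 were called in each of those fits. Genes outside the 4 entered in some: GMNN without BPAF replicate 2, PRIM1 without DMSO replicate 1 and MCM6 without DMSO replicate 2. The cause of these shifts was not tested.

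With the replicate number as a block, 449 genes were called lower and 377 higher, and 3 replication genes, MCM7 being lost. Same-numbered libraries did not deviate together (correlations 0.001, -0.043 and 0.014). The labels state no pairing, and this check cannot show whether same-numbered samples were handled together.

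The sign turned in both TPM fits (pseudocount 1 and 0.1, log2 fold change) for ORC1 0.0272 and 0.028, CDC6 0.0394 and 0.0399, MCM2 0.00775 and 0.00779, MCM3 0.0643 and 0.0645, MCM4 0.12 and 0.12, MCM5 0.0679 and 0.0683, MCM6 0.00675 and 0.0068, MCM10 0.0322 and 0.0328, CDC45 0.0581 and 0.0585, GINS1 0.0597 and 0.0609, RFC1 0.0251 and 0.0256, RFC2 0.10 and 0.10, RFC3 0.0376 and 0.0381, POLA1 0.0303 and 0.0313, POLA2 0.0299 and 0.0306, POLD1 0.0621 and 0.0626, RPA1 0.11 and 0.12, RRM2 0.15 and 0.15, TYMS 0.0262 and 0.0262, UHRF1 0.0526 and 0.0528, CHAF1A 0.0243 and 0.0245, SLBP 0.0254 and 0.0256, CCNE2 0.0529 and 0.0551. Under the length and GC offset it turned for CDT1 (-0.020), RFC3 (0.020), LIG1 (-0.011) and CCNE1 (-0.0081), without the low count filter for LIG1 (-0.0023) and CCNE1 (-0.0024), in limma-voom for CCNE1 (-0.0014), and under upper quartile scaling for RRM2 (0.0090) and TYMS (0.00023). With 1 library left out, values that crossed 0 ranged as follows: CDT1 -0.0409 to 0.0387, RFC2 -0.0671 to 0.0353, POLD1 -0.0446 to 0.0228, LIG1 -0.0223 to 0.0348, RRM2 -0.015 to 0.00841, TYMS -0.0424 to 0.0102, CHAF1A -0.0348 to 0.00708, CCNE1 -0.0532 to 0.0441. Of 352 other values from counts, 337 kept both sign and side of the threshold.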
